A study of Cercocebus atys with 16 samples.

Results

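The dual-specificity phosphatases described here are 10 genes: DUSP1, DUSP2, DUSP4, DUSP5, DUSP6, DUSP7, DUSP8, DUSP10, DUSP16 and DUSP22. Their probes were chosen by the gene name column of the array files, which held 7 of the 10 genes on 11 probes, out of 11472 gene names and 43603 probes in all. DUSP2, DUSP7 and DUSP8 stand under locus names (LOC718442, LOC698473 and LOC720960) whose description in the files reads as these genes. Their 4 probes are given beside the others and counted apart.

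The cells, T cells positive for CD3 without the coreceptors CD4 and CD8 (double-negative T cells), were taken from the blood of 4 sooty mangabeys (Cercocebus atys), all infected with SIV, the simian immunodeficiency virus that this species carries naturally. The labels give CD4 status as normal for the animals FNV and FKN and as low for FBR and FTV, and magnetic beads were used for the isolation. After a night of rest, cells of each animal were stimulated with antibodies to CD3 and CD28 or left without them, and the labelled duration of stimulation is 4 hours. Each animal had 4 arrays with 2 colours, of which 2 set stimulated against unstimulated RNA in opposite dye orientations and 2 were self-self arrays with the same RNA in both channels. The probes were designed on the rhesus macaque, and sequence differences between the species can weaken the signal of a probe.

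Mitogen-activated protein kinases (MAP kinases) pass signals from the T cell receptor to the nucleus and are switched on by phosphorylation of a threonine and a tyrosine in their activation loop. Dual-specificity phosphatases remove phosphate from both kinds of residue, and those with a MAP kinase-binding domain act as the main brake on ERK, JNK and p38. Several of their genes are themselves transcribed upon MAP kinase activity, which closes a negative feedback loop. DUSP1, DUSP2, DUSP4 and DUSP5 encode nuclear enzymes whose transcripts are inducible, DUSP6 and DUSP7 encode cytoplasmic enzymes that prefer ERK, DUSP8, DUSP10 and DUSP16 encode enzymes that prefer JNK and p38, and DUSP22 encodes a small atypical phosphatase without the kinase-binding domain.

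The probes are oligonucleotides of 60 bases, and the first 30 bases of those for DUSP5, DUSP2, DUSP6 and DUSP1, on which the results turn, are shown 5′ to 3′ as the array files give them.
DUSP5: ttatttctccaggggaaaaggcaataattt
DUSP2: tggagatcagcgcctggttccaggaggcca
DUSP6: catttgattgtgaagaagggagagttaaat
DUSP1: agaatctcttcatgcttgacatacctacca
In the files' coordinates on the rhesus build rheMac2, the DUSP5 probe lies at chr9:110212571-110212630 on the plus strand, the DUSP6 probe at chr11:90497507-90497566 on the minus strand and the DUSP1 probe at chr6:169160514-169160573 on the minus strand. The files give the DUSP2 probe as unmapped. DUSP4 probe 1 lies at chr8:29497131-29497190, probe 2 within chr8:29497994-29498920 and probe 3 at chr8:29496865-29496924, all on the minus strand. The span of 927 bases for DUSP4 probe 2 is longer than the probe. Exons, introns and UTRs of that build were not used here. Because the family shares a catalytic fold, the 15 probes were compared with each other in all 105 pairs, on both strands and over stretches of at least 30 aligned bases. The most alike were DUSP2 and DUSP4 probe 2, with 32 of 45 bases identical (71.1%), and the next pair reached 62.9%. Probes were set only against probes, without gaps, and not against the transcripts of the other genes. Whether a probe also binds RNA of another family member was therefore not tested. GC content was 55% for the DUSP2 probe and 35% for those of DUSP5 and DUSP6.

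The libraries of FNV stood apart. Turned to stimulated over unstimulated, the ratios of its arrays correlated with those of other animals at 0.634 to 0.735 across the 27493 tested probes, against 0.827 to 0.907 among the other animals, and its arrays came from another scanner. The labels of 1 FNV ratio array conflict, with channel 2 stimulated by its title and unstimulated by its treatment label. The title was followed, and that array then correlated at 0.915 with the other FNV ratio array. Each slide held the arrays of 1 animal, so slide and animal cannot be told apart. In a channel, 57% to 65% of spots were well above background on the arrays of the other animals. For FNV it was 33.3% and 37.6% on the stimulated self-self array and 52% to 64.8% on its other arrays. Both channels of that weak array are among the 4 averaged for each stimulated level of FNV. Of 11 listed T cell genes 8 were on the arrays by name, each well above background in at least 12 of 16 channels of each condition. Their summed unstimulated intensity was lowest in FNV, at 57287 against 88285 to 90656, and FNV was lowest for 8 of the 8 genes. CD4 was well above background in 16 of 16 channels of each condition. It is the coreceptor the cells were selected to lack. Monocyte and B cell genes were also measured. The summed unstimulated intensity of 10 of 15 listed monocyte genes was 126370 in FNV and 11350 to 15650 in the other animals, that of 5 of 12 B cell genes 16121 against 2164 to 3689, and none of these genes was without a channel above background. LYZ carried the monocyte sum, at 16.48 in FNV against 10.46 to 12.63 on the log2 scale, and FNV was highest for 10 of the 10 monocyte and 5 of the 5 B cell genes.

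After stimulation, transcripts of the nuclear phosphatases DUSP5, DUSP4 and DUSP2 rose, by 5.59-fold for DUSP5, 5.44-fold for the brightest DUSP4 probe and 3.80-fold for DUSP2. The ERK phosphatase DUSP6 was higher in 3 of 4 animals and lower in FNV, and did not pass the test. DUSP1, which also encodes a nuclear enzyme, did not pass either, nor did DUSP10, DUSP16, DUSP22, DUSP7 or DUSP8. Their mean log2 ratios, DUSP1 included, lay between -0.39 and 0.10. The response is the log2 ratio of stimulated over unstimulated RNA, averaged over the 2 dye orientations of an animal. It was tested against 0 over 4 animals with limma, and a probe is said to have risen or fallen where its Benjamini-Hochberg adjusted p over all tested probes is under 0.05. Of the 11 probes found by gene name, all of which were tested, 4 rose, 0 fell and 7 did not pass. Over all tested probes 40.3% passed, 19.9% as rises and 20.4% as falls. The 4 probes that rose belong to 2 of the 7 genes, 3 of them to DUSP4. The median response of the 11 probes was 0.10, and that of all tested probes was -0.01. Of the 4 probes matched by description, 3 were tested, of which 1 rose, and the DUSP8 probe left out was well above background in 0 of 16 channels of either condition. The labels do not say whether any cells or RNA were prepared more than once, so the spread is that between these 4 animals. In such bulk RNA, a change in the number of cells that express a gene and a change in RNA per cell cannot be told apart.

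**Figure D1:**
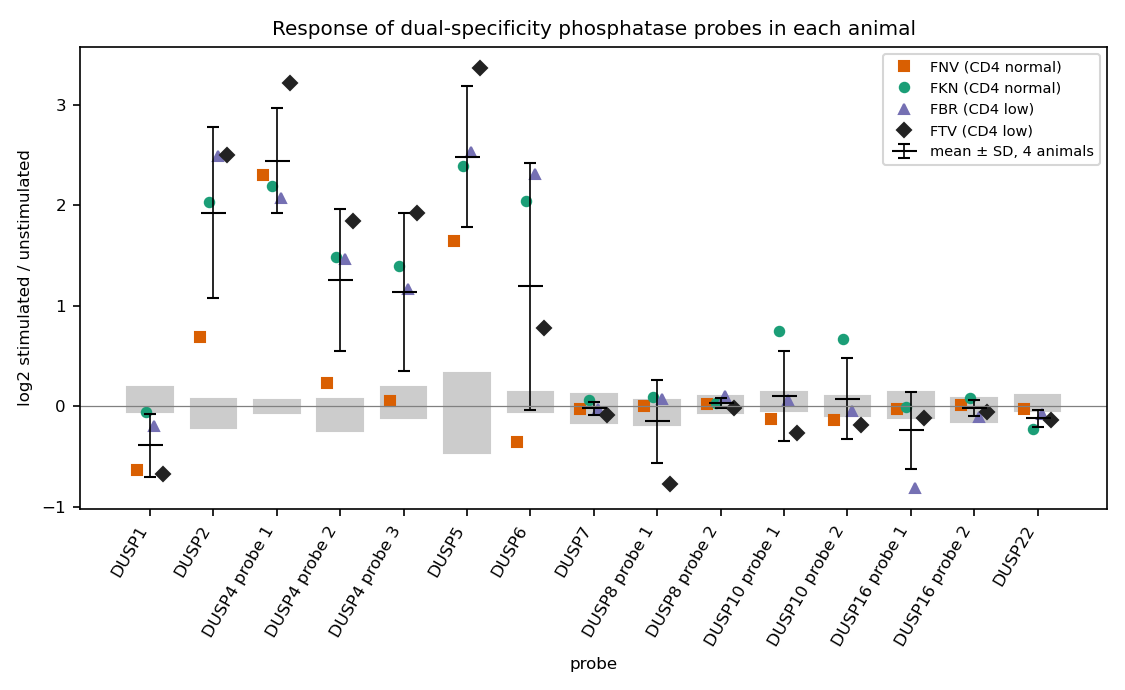
Response of each probe (log2 of stimulated over unstimulated) in the 4 animals, with the mean and SD as black bars and the range of the 8 self-self arrays as grey boxes. For DUSP5 the animals lie between 1.65 and 3.36 and for DUSP4 probe 1 between 2.07 and 3.21, for DUSP6 FNV lies at -0.36 and the others between 0.78 and 2.31, and DUSP8 probe 2 was not tested.

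DUSP5 encodes a nuclear phosphatase specific for ERK. Its unstimulated log2 level was 10.05 in FNV, 10.33 in FKN, 10.58 in FBR and 10.81 in FTV, and its stimulated level 11.60, 12.55, 12.96 and 14.09 in the same animals. All stimulated levels lay above all unstimulated levels, which held for 7.69% of tested probes (the opposite order held for 8.26%, and for 0 of the phosphatase probes), and FTV was highest and FNV lowest in both conditions. The log2 response was 1.65 in FNV, 2.39 in FKN, 2.53 in FBR and 3.36 in FTV, a mean of 2.48 ± 0.70 (SD, n = 4), or 5.59-fold. In limma this gave an adjusted p of 0.00211 and a 95% confidence interval of 1.81 to 3.16, and the mean ranked 61st from the highest of the 27493 tested probes. On the self-self arrays the ratio of the DUSP5 probe ran from -0.46 to 0.33, the widest range of any of the 15 probes, and the ratio was beyond it on 8 of 8 ratio arrays. The 2 dye orientations gave a mean of 2.62 with stimulated RNA in Cy5 and 2.35 with it in Cy3. Among 8353 named genes, the 3 whose responses in the 4 animals lay closest to those of DUSP5 were PRDM1, a transcriptional repressor of lymphocyte differentiation, UCK2, a uridine-cytidine kinase, and KCNK5, a potassium channel. Their root mean square differences from DUSP5 were 0.20, 0.23 and 0.23 log2 units over 4 animals.

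DUSP4 encodes a nuclear phosphatase that acts on ERK and JNK. Probe 1, the probe of highest mean intensity among its 3 and therefore the one used for the gene, had an unstimulated log2 level of 10.31 in FNV, 10.51 in FKN, 10.62 in FBR and 9.81 in FTV. Stimulated levels were 12.54, 12.66, 12.61 and 12.95 in the same order. The conditions did not overlap, and the stimulated levels lay within a narrower band (SD 0.18) than the unstimulated levels (SD 0.36), with FTV lowest before and highest after stimulation. The log2 response was 2.30 in FNV, 2.19 in FKN, 2.07 in FBR and 3.21 in FTV, with a mean of 2.44 ± 0.52 (SD, n = 4). That is 5.44-fold, with an adjusted p of 0.00105 in limma. No self-self array showed a ratio of this probe beyond 0.07 in either direction, the smallest such bound of the 15 probes.

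The other DUSP4 probes also rose, with smaller mean ratios, and were near background in FNV. The log2 response at probe 2 was 0.23 in FNV, 1.48 in FKN, 1.46 in FBR and 1.85 in FTV, a mean of 1.25 ± 0.71 (SD, n = 4, limma adjusted p = 0.0179). At probe 3 it was 0.06, 1.39, 1.17 and 1.92 in the same animals, a mean of 1.14 ± 0.79 (SD, n = 4, limma adjusted p = 0.0327). At both probes FNV stood far below the other 3 animals, which it did not at probe 1. In FNV, probe 2 was well above background in 2 of 4 channels of each condition and probe 3 in 0 of 4, whereas in the other animals both were above it in every channel. The FNV ratio at probe 3 therefore has no measured level behind it on either side. Unstimulated levels ran from 6.64 to 7.10 at probe 2 and from 6.42 to 6.90 at probe 3. Without FNV, the means were 1.60 ± 0.22 and 1.49 ± 0.39 (SD, n = 3). Both probes missed the threshold without FKN, FBR or FTV, with adjusted p-values in limma of 0.0629 to 0.123. In the authors' deposited table the mean ratio is 2.48 for probe 1, 2.00 for probe 2 and 2.01 for probe 3. With the scanner software's own ratios the 3 means were 2.48, 2.11 and 2.07, so the gap between probes was smaller there. The ratios computed here carry an offset of 50 in each intensity, which pulls the ratios of dim probes toward 0. The smaller ratios of probes 2 and 3 therefore depend on the processing, and the part of the offset in the gap was not tested. DUSP4 probe 2 was named otherwise in the older of 2 annotation editions, the one on the FNV arrays, while the other 14 probes had 1 name in both.

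**Figure D2:**
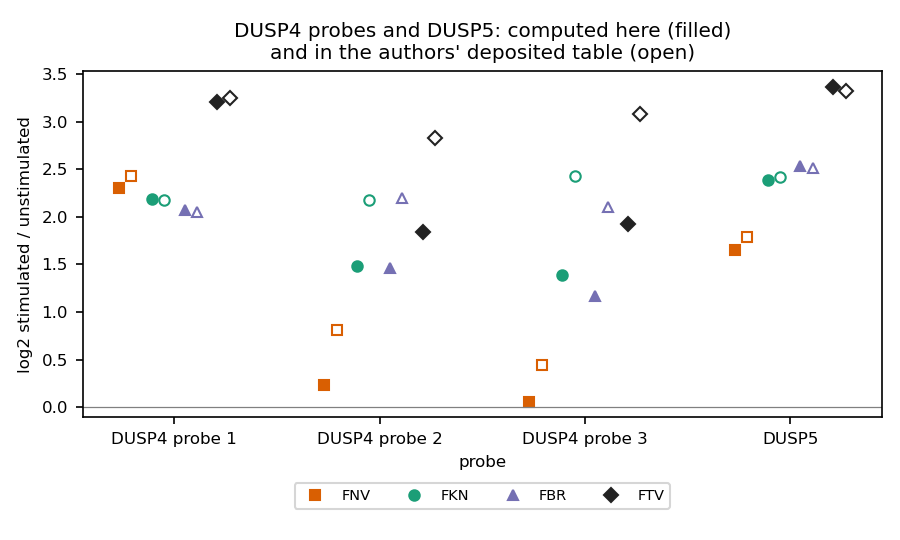
Log2 response of the 3 DUSP4 probes and DUSP5 in each animal, computed here (filled symbols) and in the authors' deposited table (open symbols). Filled and open symbols lie close together for DUSP4 probe 1 and DUSP5, and the open symbols lie higher for DUSP4 probes 2 and 3.

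DUSP2, a nuclear phosphatase known from activated T cells, was read from the probe matched by description. Its unstimulated log2 level was 8.57 in FNV, 9.37 in FKN, 8.75 in FBR and 9.10 in FTV, and its stimulated level was 9.28, 11.27, 11.16 and 11.58. FNV was lowest in both conditions, and its stimulated level lay under the unstimulated level of FKN, so the conditions overlapped by that 1 animal. The log2 response was 0.69 in FNV, 2.04 in FKN, 2.49 in FBR and 2.50 in FTV. The mean of 1.93 ± 0.85 (SD, n = 4) is 3.80-fold, with an adjusted p of 0.00838 in limma. Without FNV it was 2.34 ± 0.26 (SD, n = 3). In the authors' deposited table the mean is 2.08.

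The means of these phosphatases changed little without the FNV array with conflicting labels. They were 2.42 for DUSP5, 2.45 for DUSP4 probe 1 and 1.89 for DUSP2, each still past the threshold. Without all FNV arrays, DUSP5 rose by 2.76 ± 0.53 and DUSP4 probe 1 by 2.49 ± 0.63 (SD, n = 3).

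DUSP1 encodes a nuclear phosphatase known as an immediate early gene, with activity toward p38, JNK and ERK. Its unstimulated log2 level was 9.73 in FNV, 8.29 in FKN, 8.45 in FBR and 9.27 in FTV, and its stimulated level 9.04, 8.29, 8.22 and 8.61. The conditions overlapped, and FNV was highest in each. The log2 response was -0.63 in FNV, -0.06 in FKN, -0.20 in FBR and -0.67 in FTV, negative in 4 of 4 animals. The mean of -0.39 ± 0.31 (SD, n = 4) had an adjusted p of 0.0582 in limma and a 95% confidence interval of -0.71 to -0.07 that does not account for the number of probes. By dye orientation the mean was -0.54 with stimulated RNA in Cy3 (limma adjusted p = 0.0162) and -0.24 with it in Cy5 (limma adjusted p = 0.201). The self-self ratios of this probe ran from -0.06 to 0.19, that is, mostly toward red. The 3 named genes nearest to DUSP1 by the same measure were LMO2, a transcription factor partner of blood progenitors, PLK1S1 and TMPRSS4, at 0.07, 0.09 and 0.09 log2 units over 4 animals.

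DUSP6, a cytoplasmic phosphatase that binds and inactivates ERK, had the widest spread between animals in the response and in the unstimulated level. Its unstimulated log2 level was 11.40 in FNV, 8.45 in FKN and 9.14 in both FBR and FTV. Its stimulated level was 10.99 in FNV, 10.33 in FKN, 11.43 in FBR and 9.85 in FTV. FNV thus started above every other unstimulated level and above the stimulated levels of FKN and FTV. The log2 response was -0.36 in FNV, 2.04 in FKN, 2.31 in FBR and 0.78 in FTV. The mean of 1.19 ± 1.23 (SD, n = 4) had an adjusted p of 0.0940 in limma and a 95% confidence interval of 0.02 to 2.36. As for DUSP1, that interval does not account for the number of probes. In each animal both dye orientations had the same sign and lay within 0.09 of each other, so the spread lies between animals and not between arrays of 1 animal. Self-self ratios did not exceed 0.14 in size. Without FNV the mean was 1.71 ± 0.81 (SD, n = 3), with an adjusted p of 0.0112 in limma. With the scanner as a term, which leaves the spread to the other 3 animals, the adjusted p was 0.0204 in limma for DUSP6 and 0.0439 for DUSP1.

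FNV, whose DUSP6 and DUSP1 levels were the highest before stimulation, also had the highest monocyte and B cell signals. The summed intensity of the 10 monocyte genes in FNV was 126370 before and 44854 after stimulation, and in the other animals 11350 to 15650 before and 9134 to 10175 after. Their median log2 response was -1.35 in FNV, -0.80 in FKN, -0.46 in FBR and -0.80 in FTV over 9 tested genes. The B cell sum in FNV was 16121 before and 4942 after stimulation, and in the other animals it lay between 928 and 3689 over both conditions. The sum of 8 NK cell genes was 5412 unstimulated and 8913 stimulated in FTV and 837 to 1250 in the other animals. KLRD1 carried it, at an unstimulated log2 level of 12.03 in FTV and 6.72 to 7.73 in the others. KLRF1 was also higher in FTV, at 8.90 against 6.41 to 6.64. FTV was highest for 2 of the 8 unstimulated genes and FNV for 4, and for the stimulated genes FTV for 4 and FNV for 2. SH2D1B, among the unstimulated genes highest in FNV, had no channel above background. The part of these transcripts in the levels of DUSP6, DUSP1 or any other phosphatase was not tested.

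**Figure D3:**
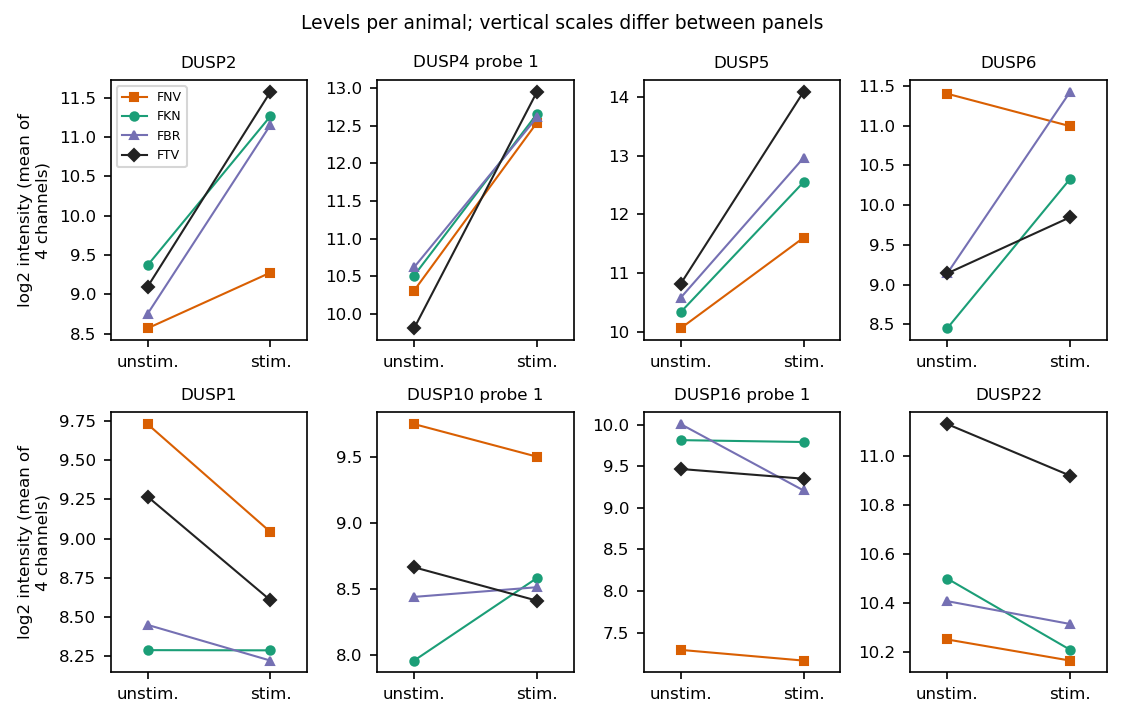
Log2 level of 8 probes in unstimulated and stimulated cells, with 1 line for each animal and each point the mean of 4 channels (vertical scales differ between panels). FNV starts at 11.40 for DUSP6 and is the one animal in which it is lower after stimulation, and it lies lowest for DUSP16 probe 1.

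The phosphatases of JNK and p38 did not pass the test. At DUSP10 probe 1 the log2 response was -0.13 in FNV, 0.75 in FKN, 0.06 in FBR and -0.26 in FTV, a mean of 0.10 ± 0.45 (SD, n = 4, limma adjusted p = 0.657). Probe 2 gave -0.14, 0.67, -0.05 and -0.19 in the same animals, so FKN was the high animal at both. The level at DUSP10 probe 1 was highest in FNV, at 9.75 unstimulated and 9.50 stimulated, against 7.96 to 8.67 in the other animals over both conditions. At probe 2 the unstimulated level of FNV, 7.68, lay inside the range of 7.64 to 7.89 of the other animals, so the probes did not place FNV alike.

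DUSP16 probe 1 gave log2 responses of -0.02 in FNV, -0.01 in FKN, -0.81 in FBR and -0.12 in FTV, a mean of -0.24 ± 0.38 (SD, n = 4, limma adjusted p = 0.252). FBR alone was clearly lower, on both of its ratio arrays. The level of DUSP16 probe 1 in FNV was 7.29 unstimulated and 7.16 stimulated, and in the other animals 9.21 to 10.01 over both conditions. The animals thus differed far more than the conditions did. In FNV it was well above background in 4 of 4 unstimulated and 2 of 4 stimulated channels. DUSP16 probe 2 was well above background in 8 of 16 unstimulated and 5 of 16 stimulated channels, and its mean response was -0.02 ± 0.08 (SD, n = 4). DUSP8 probe 1 gave 0.01, 0.09 and 0.07 in FNV, FKN and FBR and -0.77 in FTV, with a mean of -0.15 ± 0.42 (SD, n = 4, limma adjusted p = 0.488). In FNV that probe was well above background in 1 of 4 unstimulated and 0 of 4 stimulated channels.

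DUSP22 encodes a phosphatase known to dampen T cell receptor signalling through the kinase LCK. Its unstimulated log2 level was 10.25 in FNV, 10.50 in FKN, 10.41 in FBR and 11.13 in FTV, and its stimulated level 10.17, 10.21, 10.31 and 10.92. The conditions overlapped, and FTV was the highest animal in both. The log2 response was -0.03, -0.23, -0.08 and -0.14 in that order, negative in 4 of 4 animals, with a mean of -0.12 ± 0.09 (SD, n = 4, limma adjusted p = 0.160). The ERK phosphatase DUSP7, matched by description, had a mean of -0.02 ± 0.06 (SD, n = 4, limma adjusted p = 0.796). Its 95% confidence interval ran from -0.16 to 0.12, and on 0 of 8 ratio arrays was its ratio larger in size than on the self-self arrays. This narrow spread depends on the processing of a dim probe. With the scanner software's own ratios the mean was -0.16 (limma adjusted p = 0.495). In the authors' deposited table the animals ran from -0.34 in FNV to 0.18 in FKN. In FNV the probe was above background in 0 of 4 channels of each condition.

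CD4 status set 2 animals against 2, which limits what can be shown. With all 4 animals in the fit, no phosphatase probe passed limma's test in the response or in the level of either condition. Over all 27493 probes 0% were called in each of the 3 comparisons, while 594, 445 and 530 probes had an unadjusted p under 0.05 in the response, the unstimulated level and the stimulated level. The DUSP5 response averaged 2.95 in the animals with low CD4 status and 2.02 in those with normal status, a difference of 0.93 with a 95% confidence interval of -0.12 to 1.98. Its stimulated level differed by 1.45 (95% confidence interval 0.02 to 2.88), with an unadjusted p of 0.0476 and an adjusted p of 0.83 in limma. That interval does not account for the number of probes. The DUSP2 response averaged 2.49 and 1.36, a difference of 1.13 with a 95% confidence interval of -0.12 to 2.38. For the responses of DUSP5 and DUSP2 both animals with low status lay above both with normal status, a separation on 1 side or the other that 27% of tested probes showed. Of the 11 probes found by gene name, 3 were separated in the response, 2 in the unstimulated level and 5 in the stimulated level, against 27%, 34.3% and 34.2% of all tested probes. For DUSP6 the responses of the groups overlapped, with a difference of 0.70 and a 95% confidence interval of -1.86 to 3.27. FNV, which stood apart, is 1 of the 2 animals with normal status. Without FNV the difference in response was 0.56 for DUSP5 and 0.46 for DUSP2. Without FKN, which leaves FNV alone for normal status, the difference in stimulated level was 2.09 for DUSP2 and 1.93 for DUSP5. It was 2.12 for DUSP16 probe 1, -1.04 for DUSP10 probe 1, and 1.83 and 1.86 for DUSP4 probes 2 and 3. Without FNV, these differences were 0.099, 0.98, -0.51, -0.12, 0.087 and 0.13 in the same order. The stimulated levels of FNV include its weak self-self array. In FNV, DUSP4 probes 2 and 3 and DUSP16 probe 1 were well above background in 2, 0 and 2 of 4 stimulated channels.

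The rest of the family and the pathway that these enzymes act on were read from lists of gene names, with 1 probe for each gene. Counted in that way over all 8354 tested gene names, 47.1% passed, 22.5% as rises and 24.6% as falls. Of 22 other phosphatases of the dual-specificity class, 14 were tested, of which 1 rose, 4 fell and 9 did not pass, against the 47.1% that passed over all gene names, with a median log2 response of 0.01. DUSP14, a small phosphatase that restrains T cell receptor signalling, was at 0.25 in FNV, 0.59 in FKN, 0.54 in FBR and 0.75 in FTV, a mean of 0.53 ± 0.21 (SD, n = 4, limma adjusted p = 0.00943). SSH2, a cofilin phosphatase of the slingshot group, was at -1.16, -2.05, -2.27 and -2.14, a mean of -1.91 ± 0.50 (SD, n = 4, limma adjusted p = 0.00180). The second SSH2 probe was at -1.03. SSH3 and DUSP19 fell by 0.40 and 0.34, with their second probes at -0.51 and -0.10. DUSP3, which acts on ERK and JNK, was at -0.05 in FNV and 0.56 to 1.05 in the other animals. Its mean was 0.59, with an adjusted p of 0.0522 in limma. FNV was its lowest animal, as for DUSP6, DUSP5, DUSP2 and DUSP4 probes 2 and 3. DUSP3 falls outside the rule for named genes and was singled out after its values were seen.

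Other phosphatases that act on MAP kinases had 5 of 9 genes tested, of which 1 rose, 2 fell and 2 did not pass, with a median of -0.28. Over all gene names 22.5% rose and 24.6% fell. PPP2CB, a catalytic subunit of protein phosphatase 2A, rose by 0.92 ± 0.26 (SD, n = 4), and the metal-dependent phosphatases PPM1D and PPM1A fell by 0.52 and 0.32. The second probes of PPP2CB and PPM1A were at 0.88 and -0.18. Of the MAP kinases themselves, 8 of 13 were tested, of which 3 rose, 2 fell and 3 did not pass. The same shares over all gene names stand beside these counts. The p38 kinase MAPK11 rose by 1.69, the atypical kinase MAPK6 by 1.34 and the JNK kinase MAPK10 by 0.43. The other MAPK6 probes were at 1.03 to 1.10. MAPK3, which encodes an ERK kinase, fell by 1.35 ± 0.19 (SD, n = 4), with an adjusted p of 0.000672 in limma. Its ratio was below 0 in 4 of 4 animals, from -1.10 in FNV to -1.55 in FTV. The second MAPK3 probe was at -0.98.

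Upstream of the kinases, 16 of 22 MAP kinase kinase and Ras-Raf genes were tested, of which 4 rose, 6 fell and 6 did not pass, beside 22.5% rises and 24.6% falls over all gene names, with a median of -0.15. MAP2K4, which activates JNK, rose by 0.89, the Ras exchange factor SOS1 by 0.61 and the Ras GTPase activator RASA1 by 0.55. MAP2K6, which activates p38, fell by 2.20, the exchange factor RASGRP2 by 1.81 and MAP2K5 by 1.22. The second probes of MAP2K6 and MAP2K5 were at -0.61 and -0.77. The Sprouty and SPRED genes, which encode other feedback inhibitors of Ras and Raf, had 4 of 7 tested, and SPRY1 rose by 1.54 ± 0.63 (SD, n = 4) while 3 did not pass. The transcription factor and early response genes known to follow MAP kinase activity had 12 of 20 tested, of which 9 rose, 0 fell and 3 did not pass, beside 22.5% rises over all gene names, with a median of 1.21. MYC rose by 2.07, EGR2 by 1.83 and FOSL2 by 1.81. Among those that did not pass was FOS, at -0.72 in FNV and 0.60 to 1.08 in the other animals. FOS was also singled out after its values were seen.

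**Figure D4:**
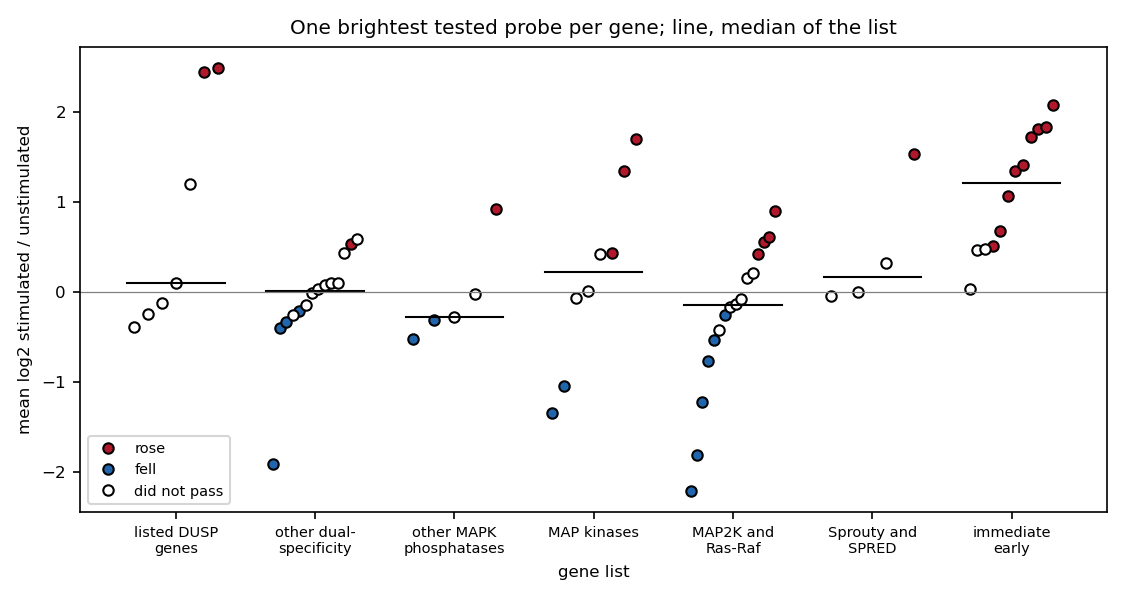
Mean log2 response of each tested gene in the phosphatase genes found by gene name and 6 other lists, with red for genes that rose, blue for genes that fell, white for genes that did not pass, and a line at the list's median. The median of the early response genes is 1.21, and those of the other lists lie between -0.28 and 0.22.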

How the data were processed

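RNA of double-negative T cells was measured on 16 arrays of 4 animals. The authors deposited, per the file headers, spot and local background intensity from Agilent Feature Extraction 10.7.3.1, not normalised, and a log10 ratio of red over green from that software. The authors also deposited a table of log2 ratios per animal, made by steps not given in the sources used here. The submitters' processing notes list Agilent Feature Extraction and limma but no role for either. The table's columns correlated with the ratios computed here at 0.883 to 0.924 across probes, which settles its direction but not its centring.

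Intensities were corrected in R 4.3.3 with limma 3.58.1 (normexp, offset 50), and ratios were normalised within arrays by loess, with control and outlier spots (1 to 51 per array) at weight 0. No spot was saturated. Cy5 is channel 2 and Cy3 channel 1 per the labels, ratios were signed as stimulated over unstimulated, and both ratio arrays of 1 animal were averaged to 1 replicate because they share their RNAs. The filter asked, in at least 2 animals, for the stimulated or the unstimulated channel to be well above background on both ratio arrays, which left 27493 of 43603 probes. Levels used Aquantile normalisation and the mean of 4 channels, and levels of different probes were compared only to take the probe of highest mean intensity for a gene. Responses were tested against 0, and low against normal CD4 status, with lmFit and eBayes and Benjamini-Hochberg adjustment over all tested probes. The labels' replicate numbers mark animals, so pairing by animal lies inside each ratio. The number of animals and arrays limits the precision. The median SD between animals was 0.16 and the median size of a self-self ratio 0.06, both log2.

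In a test on simulated data with 200 of 27493 probes changed, the response test recovered 0%, 72.5% and 95.5% of changes of 0.5, 1 and 2 log2 units. The test of CD4 status in the response recovered 0%, 0% and 64%. In the data 40.3% of probes passed the response test, so the Benjamini-Hochberg threshold was stricter in the simulation. The response test on the data called smaller changes, such as SSH3 at -0.40 (limma adjusted p = 0.00502). The simulated shares therefore do not give its power on the data. Probes in the files carry 2 annotation editions, and the newer was used. The members and lists were chosen with earlier results of these data known. Named beside all members were up to 3 rises and 3 falls per list among genes that passed, and the 3 genes nearest in response to the members with the largest rise and the largest negative mean. Figures were drawn with matplotlib 3.10.9 in Python 3.11.15. Alternatives in background correction, normalisation, filter, arrays, dye orientation, probes and animals were run. The values of 1 listed gene are not reported here.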

Additional observations from a re-analysis of the deposited data

Results flagged for a closer look

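Of 45 groups of 4 animals examined for 1 value far from the others, 6 held one, where chance gives about 1 in 20. In the response, FTV lay at -0.77 for DUSP8 probe 1 with the nearest animal at 0.01, FKN at 0.67 for DUSP10 probe 2 with the nearest at -0.05, and FBR at -0.81 for DUSP16 probe 1 with the nearest at -0.12. Each of these was seen on both ratio arrays of the animal. In the stimulated level, FNV lay at 6.66 for DUSP4 probe 2 with the nearest at 8.40 and at 9.50 for DUSP10 probe 1 with the nearest at 8.58, and FKN lay at 6.68 for DUSP16 probe 2 with the nearest at 6.62. The last of these probes was well above background in 5 of 16 stimulated channels. Both FNV values include its stimulated self-self array, where 33.3% and 37.6% of spots were well above background.

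For DUSP16 probe 2 the 2 animals with low CD4 status had responses below 0 and the 2 with normal status above 0, a difference of -0.12 (95% confidence interval -0.45 to 0.20). It did not pass limma's test of the difference, and on 0 of 8 ratio arrays was its ratio larger in size than the largest self-self ratio of 0.15.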

How the results depend on the processing

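DUSP5, DUSP4 probe 1 and DUSP2 passed in 17 of 17 settings, with ranges of 2.19 to 2.76, 2.19 to 2.57 and 1.74 to 2.34. DUSP7, DUSP8 probe 1, DUSP10, DUSP16 and DUSP22 passed in none of theirs. DUSP6 passed without FNV and with the scanner as a term, and DUSP1 with the scanner as a term and with stimulated RNA in Cy3 alone. DUSP4 probe 3 missed the threshold with no filter (adjusted p = 0.0648 in limma), and no strict filter value exists for it. Without each animal in turn, 5796 to 14074 probes and 2 to 5 of the phosphatase probes found by gene name passed, against 11082 and 4. With median centring in place of loess 4851 probes passed, of which 40.2% were higher, against 49.3% with loess, and the median over all probes was -0.02. With 1 probe for each gene name 2 of the phosphatase probes found by gene name passed, since 2 DUSP4 probes are then left out. On the self-self arrays alone, 8169 probes passed with the animal as a replicate block and 2159 with no replicate block. In each, 2 of the phosphatase probes found by gene name passed, beside DUSP2. DUSP4 probes 2 and 3 then missed the threshold, and the cause was not tested. For CD4 status, leaving out each animal gave 0 to 2 probes in the unstimulated level (2 without FTV) and 0 to 5120 in the stimulated level (5120 without FKN). With levels from the ratio arrays alone, an alternative chosen after seeing the data, the mean stimulated levels of DUSP8 probe 1 and DUSP16 probe 2 moved to 6.90 and 6.59. Dim probes in FNV limit what DUSP4 probes 2 and 3, DUSP7, DUSP8, DUSP10 probe 2 and DUSP16 can show.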
